A study of Homo sapiens with 2 samples.

Results

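Interferon-stimulated and antiviral sensing genes were followed in A549 cells after silencing of p62/SQSTM1, a ubiquitin-binding cargo receptor of selective autophagy. A549 is an established line from a human lung adenocarcinoma. The siP62 group was transfected with an siRNA against p62/SQSTM1 and the siCONTROL group with a control siRNA, and both were read at 24 hours after transfection on 1 whole-transcript array each. Every difference below is therefore between 2 arrays, has no replicate error and no p-value, and whether the groups overlap could not be seen. The genes were chosen by symbol, with earlier results of these data known. The symbols were those of the IFI, IFIT, IFN, ISG, OAS, MX, HERC, SAMD9, PARP, IRF, STAT, GBP, APOBEC3 and TLR families. A short list with sensors and kinases such as RIGI, MAVS, TBK1, EIF2AK2, JAK1 and TYK2 was added. Of 14884 genes named on the array, 70 were found. Genes count as kept here where at least 1 of the 2 log2 values reached 5.35, the median of all named probe sets. This held for 41 of the 70 (58.6%), against 53.0% of all named genes, and the other 29 lay below that limit.

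Type I interferons are secreted when cells sense foreign nucleic acid and act through cell-surface receptors, the kinases JAK1 and TYK2 and the STAT factors. STAT factors together with IRF9 bind a promoter element called the ISRE (interferon-stimulated response element) and switch on genes whose products degrade viral RNA, block its translation or tag proteins with the ubiquitin-like modifier ISG15. Airway epithelial cells sense viral RNA with RIGI and IFIH1, which signal through MAVS on mitochondria and the kinase TBK1 to IRF3. Not all of the symbols belong to this response. The patterns also took in 14 by name only: HERC1 to HERC4, 5 pseudogenes of HERC2, the DNA repair enzymes PARP1 and PARP2, and the 3 IRF2BP corepressor genes. On the other side, 21 of 50 central genes sought, such as IFNAR1, MX1, OAS1 and IFI27, are not analysed here, nor is any interferon ligand.

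The arrays served first to check the knockdown and to look at cell type markers. SQSTM1 itself had a log2 value of 7.30 in siP62 cells and 8.64 in siCONTROL cells, which left 39.5% of the control level. The epithelial markers EPCAM, KRT7, KRT8, KRT18 and KRT19 were kept and differed by 0.02 to 0.21 on the log2 scale, and CDH1 was not named on the array. Of the leukocyte markers sought, CD14 (-0.04) and CD68 (-0.06) were kept, LYZ and NCAM1 lay below the limit and 6 were not named on the array. CD68 had 8.42 in siP62 cells and 8.48 in siCONTROL cells. Of the epithelial markers only KRT18 was higher, with 11.97 in siP62 cells and 11.95 in siCONTROL cells. The endothelial markers PECAM1, VWF and KDR and the fibroblast marker DCN lay below the limit in both arrays. The endothelial marker CDH5 and 4 fibroblast markers had no named probe set. In bulk RNA of this kind, fewer cells that express a gene and less RNA per cell cannot be told apart.

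The ISRE was searched for in the promoters because it is the feature the interferon response is read through. The choice by symbol did not read promoters, but many of the symbols name genes known for their induction by interferon. A higher share of ISRE letters than among all genes therefore follows from the choice and is no result of these arrays. The promoters of 54 of the 70 genes were matched in RefSeq (GRCh38.p14), each as a window of 250 bases before to 50 bases after a gene start. The ISRE core was searched on either strand as GAAA, any 2 bases and GAAA again. It was present in at least 1 promoter of 18 of the 54 genes (33.3%) and of 1195 of 27305 genes in the whole table (4.38%). The GAS element, which STAT dimers bind, was searched as TTC, any 3 bases and GAA, which reads the same on both strands. It was present in 10 of the 54 (18.5%) and in 9.38% of all genes. Both motifs were present in the windows of BST2, DDX60, EPSTI1, GBP3 and TLR3. In BST2 and EPSTI1 a GAS match and an ISRE match overlap and share letters. Their first bases lie 136 and 130 bases before the start in BST2 and 56 and 50 in EPSTI1. Stretches of 5 promoters with ISRE matches follow, from 150 bases before the start to the base before it, 5′ to 3′ on the gene's strand, with the matched letters in capitals. They are shown because ISG20 and ISG15, the lowest kept genes of the set, and SAMD9 and HERC5, which were higher in siP62 cells, carry the same letters, while IFIT1, a classical interferon-stimulated gene, lay below the limit.
ISG20 (chr15:88638866-88639015, plus strand): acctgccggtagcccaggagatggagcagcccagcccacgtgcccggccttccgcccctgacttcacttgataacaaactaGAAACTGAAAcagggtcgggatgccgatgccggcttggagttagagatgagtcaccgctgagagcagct
ISG15 (chr1:1013347-1013496, plus strand): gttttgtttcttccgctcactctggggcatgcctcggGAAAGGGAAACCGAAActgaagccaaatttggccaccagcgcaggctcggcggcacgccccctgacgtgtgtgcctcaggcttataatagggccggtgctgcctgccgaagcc
SAMD9 (chr7:93117980-93118129, minus strand): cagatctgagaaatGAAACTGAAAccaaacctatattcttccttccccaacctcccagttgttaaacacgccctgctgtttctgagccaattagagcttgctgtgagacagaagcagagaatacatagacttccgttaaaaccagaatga
HERC5 (chr4:88456969-88457118, plus strand): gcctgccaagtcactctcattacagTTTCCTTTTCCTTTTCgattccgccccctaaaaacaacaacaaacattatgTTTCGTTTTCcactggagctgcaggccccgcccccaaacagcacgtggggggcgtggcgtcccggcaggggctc
IFIT1 (chr10:89392473-89392622, plus strand): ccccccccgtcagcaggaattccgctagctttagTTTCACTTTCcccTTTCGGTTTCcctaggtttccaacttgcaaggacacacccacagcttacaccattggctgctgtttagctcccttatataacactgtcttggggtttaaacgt

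The matches lie on the gene's own strand in ISG20, ISG15 and SAMD9 and on the opposite strand in HERC5 and IFIT1. In ISG15 a pair of matches overlaps, with first bases 113 and 107 bases before the start, and in HERC5 an overlapping pair lies beside a further match 74 bases before the start. In ISG20 the match begins 69 bases before the start and in SAMD9 136 bases before it. Of the 18 genes with ISRE letters, 7 were kept and 11 lay below the limit, among 34 kept genes and 20 below it that were matched to a promoter. The 7 kept genes had a median difference of 0.14, and 4 were higher and 3 lower in siP62 cells, with a range from -0.53 (ISG20) to 0.56 (HERC5). ISG20 and HERC5 passed the filter only through the array in which they were higher, and ISG15 alone of the 7 lay at least 2 robust SD (the spread of differences over genes of like level) from the median of its level bin. The 27 kept genes without these letters had a median of 0.03, with 17 higher and 10 lower. Among all kept genes, 55.4% were higher and 41.8% lower. With the 50 bases after the start left out, 5 kept genes held the letters, with a median of -0.01. The 29 kept genes without them then had a median of 0.09, so the order of the groups was reversed. A match is a run of letters and is not shown to be a bound site.

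**Figure D1:**
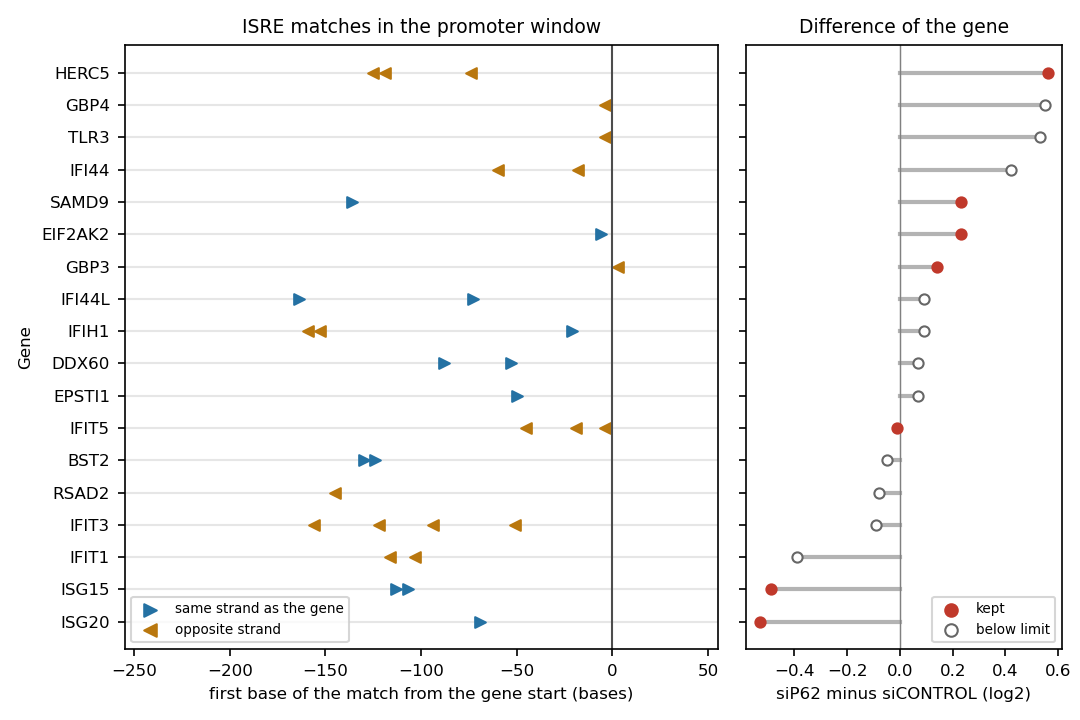
Left, position of each ISRE match (first base, in bases from each annotated gene start) in the 18 genes that hold one, pointing right on the gene's strand and left on the opposite strand; right, the siP62 minus siCONTROL difference of the gene (log2), filled where the gene was kept and open where it lay below the filter limit. Genes are ordered by their difference, from HERC5 (0.56) to ISG20 (-0.53), and only genes with a match are shown.

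Over all 41 kept genes, the interferon and antiviral set went both ways and its median lay close to that of genes at large. The median difference, siP62 minus siCONTROL, was 0.03 on the log2 scale, against 0.04 for all 7896 kept genes. In the siP62 array 24 were higher and 17 lower, and 55.4% of all kept genes were higher and 41.8% lower. Only SAMD9L was at least 1.5-fold higher, where 2.08% of all kept genes were, and none was at least 1.5-fold lower, where 1.6% were. None of the 41 was 2-fold higher or lower, where 0.165% and 0.228% of all kept genes were. The central part of the differences spread from -0.18 to 0.23 (quartiles), against -0.11 to 0.18 for all kept genes. Each difference was also set against the robust SD of the differences of kept genes of like level, which is a spread over genes and not an error between replicates. By that scale SAMD9L lay at least 2 robust SD above the median of its level bin, as 3.67% of all kept genes did, and ISG15 and HERC2P9 at least 2 robust SD below it, as 4.33% did.

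**Figure D2:**
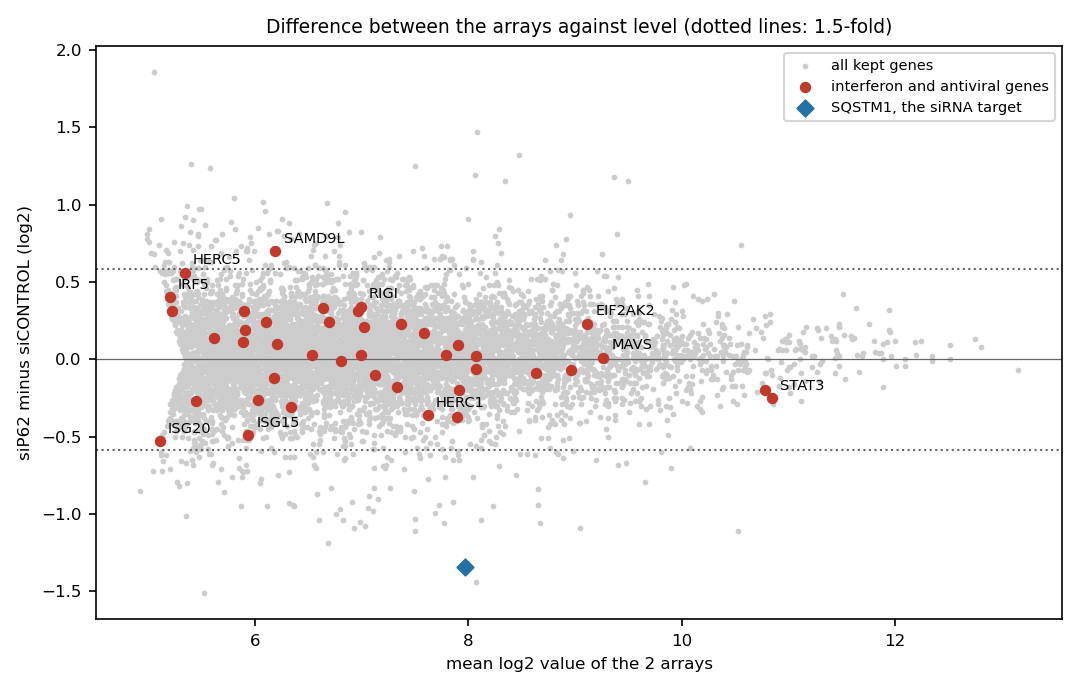
Difference between the arrays (siP62 minus siCONTROL, log2) against the mean log2 value of the 2 arrays, for all 7896 kept genes (grey), the 41 interferon and antiviral genes (red) and SQSTM1 (diamond), with dotted lines at 1.5-fold. The red points lie within the grey cloud, and SAMD9L is the only 1 beyond a dotted line.

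When the 13 kept genes held by name only were left out, a choice made after the values were seen, the other 28 had a median difference of 0.105, with 19 higher and 9 lower in siP62 cells. The 13 themselves had a median of -0.07, with 5 higher and 8 lower. For comparison, 55.4% of all kept genes were higher and 41.8% lower. Among the 28, HERC5, IRF5 and TLR6 passed the filter only through the siP62 array, and ISG20 and STAT4 only through the siCONTROL array. These medians stand beside a shift of 0.04 over all kept genes. With that shift subtracted, the median of the 41 was -0.01 and 19 were higher and 22 lower. The 28 were not recounted in that way.

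The SAMD9 pair showed the highest difference of the set. SAMD9L restrains translation and cell growth and is induced by interferon, and it lies beside its paralog SAMD9 on chromosome 7. SAMD9L had a log2 value of 6.54 in siP62 cells and 5.84 in siCONTROL cells, a 1.62-fold higher level. That difference of 0.70 ranked 79 from the highest of 7896 kept genes and lay 2.78 robust SD above the median of its level bin. SAMD9, also an antiviral restriction factor, had 7.48 in siP62 cells and 7.25 in siCONTROL cells, a difference of 0.23 against a robust SD of 0.24. Both were thus higher in siP62 cells, SAMD9L by more than genes of like level usually differed and SAMD9 not. The probes of these paralogs were not checked against each other.

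ISG15 and ISG20 were the lowest of the set. ISG15, the ubiquitin-like protein that is conjugated to other proteins and also secreted, had a log2 value of 5.69 in siP62 cells and 6.18 in siCONTROL cells, a 1.40-fold lower level. It lay 2.29 robust SD below the median of its level bin, and its difference of -0.49 ranked 211 from the lowest of the kept genes. ISG20, an exonuclease that degrades viral RNA, had 4.84 in siP62 cells and 5.37 in siCONTROL cells, a difference of -0.53. Its siP62 value lay below the filter limit and the robust SD of its bin was 0.39, so the size of that difference is uncertain. That bin is the lowest, where genes with a mean below the limit were kept only if 1 array was higher, which widens its spread.

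The genes for the enzymes that attach ISG15 to proteins differed little or the other way, apart from TRIM25. HERC5, the main ISG15 ligase in human cells, had a log2 value of 5.62 in siP62 cells and 5.06 in siCONTROL cells, a difference of 0.56 with the control value below the filter limit. HERC6, which serves as the ISG15 ligase in mice and adjoins HERC5 on chromosome 4, had 6.80 in siP62 cells and 6.47 in siCONTROL cells, a difference of 0.33. These were 1.35 and 1.30 robust SD above the medians of their bins. For HERC6 that lies within the spread of genes of like level. HERC5 lay in the same lowest bin as ISG20, whose spread the filter widened, so its standing cannot be read from that scale. The ISG15-activating enzyme gene UBA7 lay below the limit, with 4.63 in siP62 cells and 4.33 in siCONTROL cells. UBE2L6, which carries activated ISG15, differed by 0.02 and USP18, the protease that removes ISG15, by -0.07. TRIM25, a ubiquitin ligase that activates RIGI and also acts as an ISG15 ligase, had 8.59 in siP62 cells and 8.98 in siCONTROL cells, 2.28 robust SD below the median of its bin. Of the 4 enzymes fixed as an ISG15 conjugation list, 3 were kept and none differed by 1.5-fold.

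The remaining HERC genes are ubiquitin ligases or their pseudogenes and are not known as a block of interferon targets. HERC1 had 7.44 in siP62 cells and 7.80 in siCONTROL cells, and its second probe set, with lower values, differed by -0.37 beside -0.36 for the first. HERC3, which lies in the same gene cluster as HERC5 and HERC6 with 2 coding genes between it and HERC5, differed by -0.26. HERC2 (-0.06) and HERC4 (0.02) were close to the median of all kept genes. The HERC2 pseudogenes went both ways, from -0.37 for HERC2P9 and -0.31 for HERC2P10 to -0.07 for HERC2P3 and 0.21 for HERC2P2. HERC2P7 lay below the limit. These copies are nearly identical to HERC2, so which copy a probe set read is uncertain.

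**Figure D3:**
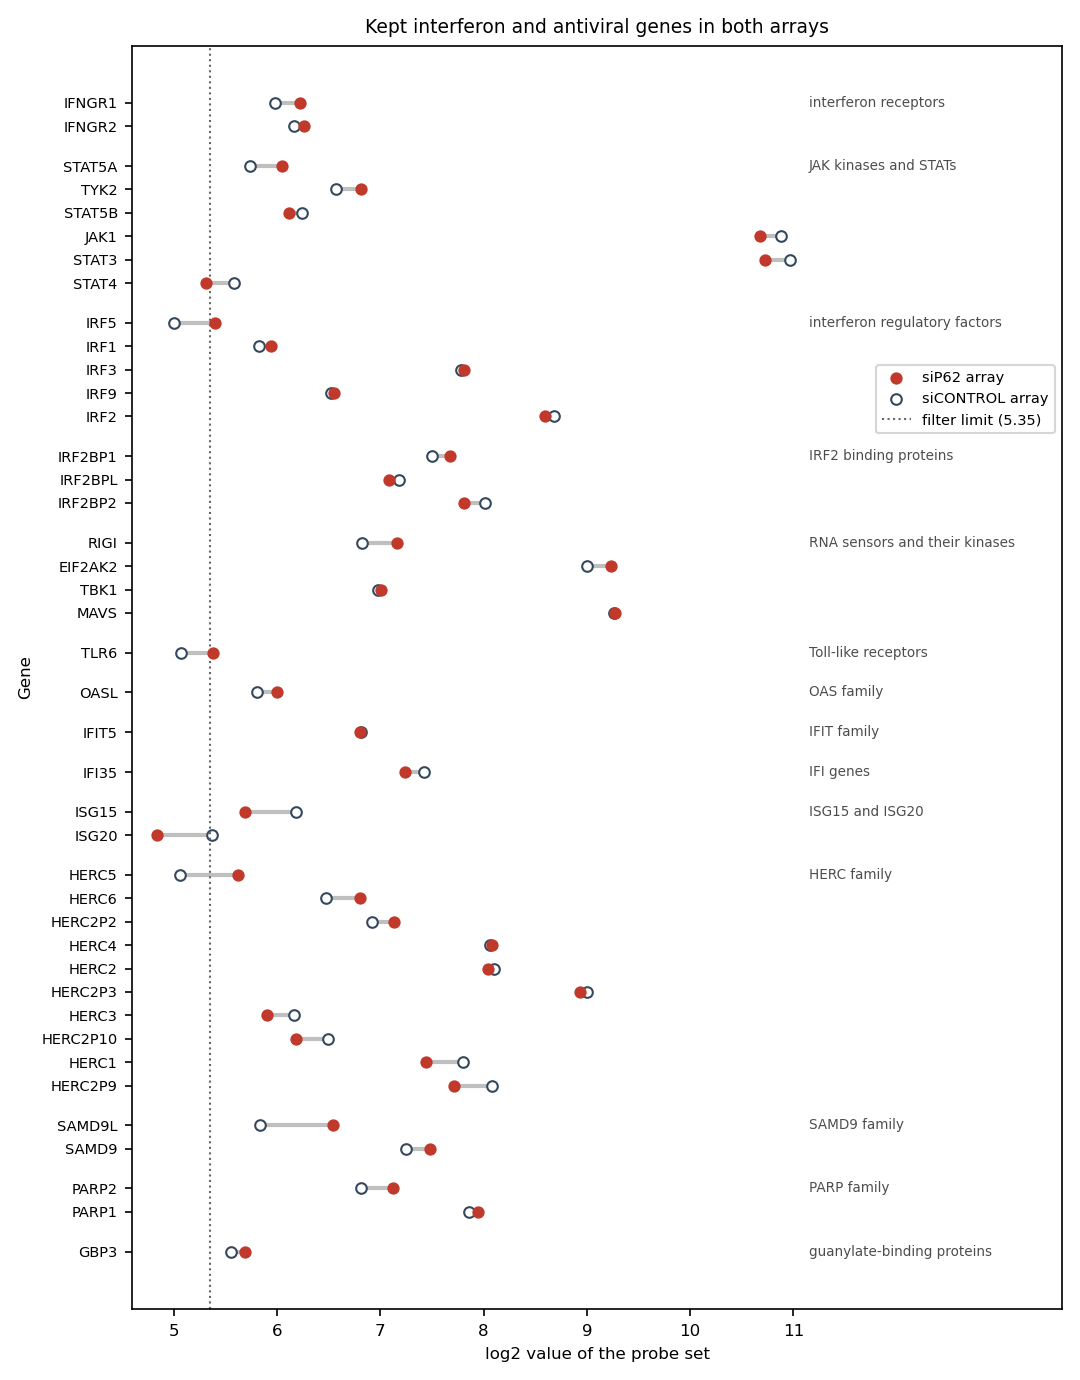
Log2 value of each of the 41 kept genes in siP62 cells (filled) and the siCONTROL array (open), grouped by role and ordered within a role by the difference; the dotted line is the filter limit, 5.35. The longest bars are those of SAMD9L and HERC5, with siP62 to the right, and of ISG20 and ISG15, with siP62 to the left.

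The RNA sensors and their signalling partners lay at or slightly above the control values. RIGI, the cytosolic sensor of RNA with a terminal triphosphate, had a log2 value of 7.16 in siP62 cells and 6.82 in siCONTROL cells, a 1.27-fold higher level. EIF2AK2 encodes PKR, the kinase that halts translation on binding double-stranded RNA, and had 9.23 in siP62 cells and 9.0 in siCONTROL cells. The adaptor MAVS had 9.27 in siP62 cells and 9.26 in siCONTROL cells, and TBK1, the kinase that phosphorylates IRF3, had 7.01 in siP62 cells and 6.98 in siCONTROL cells. All 4 kept genes of this role were above 0, with a median of 0.13. With the 0.04 shift over kept genes taken off, however, MAVS and TBK1 lay below 0. RIGI was 1.35 robust SD above the median of its bin and EIF2AK2 1.07, so neither left the spread of like genes. IFIH1, the sensor of long double-stranded RNA, and DDX60, a helicase that aids RIGI, lay below the limit and differed by 0.09 and 0.07.

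The receptor and kinase steps of interferon signalling differed by small amounts in both directions. The interferon-gamma receptor chains were the only interferon receptors named on the array. IFNGR1 had 6.22 in siP62 cells and 5.98 in siCONTROL cells, and IFNGR2 had 6.26 in siP62 cells and 6.16 in siCONTROL cells. JAK1, the kinase shared by all interferon receptors, had 10.68 in siP62 cells and 10.88 in siCONTROL cells. STAT3, which carries signals of the interleukin-6 family as well as interferon, had 10.72 in siP62 cells and 10.97 in siCONTROL cells. Genes of their level differed little between the arrays (robust SD 0.15), and JAK1 lay 1.62 and STAT3 1.96 robust SD below the median of their bin. TYK2, the partner kinase of JAK1 at the type I receptor, differed by 0.24 the other way, with 6.81 in siP62 cells and 6.57 in siCONTROL cells. The paralogs STAT5A (0.31) and STAT5B (-0.12), which serve growth hormone and cytokine receptors, went apart. STAT4, a factor of lymphocytes, differed by -0.27 with an siP62 value of 5.31 below the limit. Of the 6 kept JAK kinase and STAT genes 2 were higher and 4 lower, with a median of -0.16. The 2 receptor genes were both higher. Of all kept genes 55.4% were higher and 41.8% lower.

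Among the interferon regulatory factors, IRF3 and IRF9 each differed by 0.03. IRF3, the factor activated by TBK1, had 7.81 in siP62 cells and 7.78 in siCONTROL cells. IRF9, the DNA-binding partner of STAT factors at the ISRE, had 6.55 in siP62 cells and 6.52 in siCONTROL cells. Both differences turned below 0 when the 0.04 shift over kept genes was taken off. IRF1, which interferon-gamma induces, differed by 0.11 and its antagonist IRF2 by -0.09. IRF5, a factor of inflammatory cytokine genes, had 5.40 in siP62 cells and 5.00 in siCONTROL cells, with the siCONTROL value below the filter limit. IRF7 (0.16), the amplifier of type I interferon production, and the immune-cell factors IRF8 (0.18) and IRF4 (0.38) lay below the limit in both arrays. The IRF2 corepressors differed by 0.17 for IRF2BP1, -0.10 for IRF2BPL and -0.20 for IRF2BP2, whose other probe set differed by -0.13.

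Among the other antiviral effectors that were kept, differences stayed small. OASL, an OAS-like protein that enhances RIGI signalling, had 6.0 in siP62 cells and 5.81 in siCONTROL cells. IFIT5, which binds the ends of foreign RNA, had 6.80 in siP62 cells and 6.81 in siCONTROL cells. IFI35, which forms a complex with NMI, had 7.24 in siP62 cells and 7.42 in siCONTROL cells. GBP3, a guanylate-binding protein, differed by 0.14. The Toll-like receptor gene TLR6, which pairs with TLR2 to sense bacterial lipopeptides, was the only kept member of its family, with 5.38 in siP62 cells and 5.07 in siCONTROL cells, the siCONTROL value below the filter limit. The DNA repair enzymes PARP1 and PARP2 differed by 0.09 and 0.31.

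**Figure D4:**
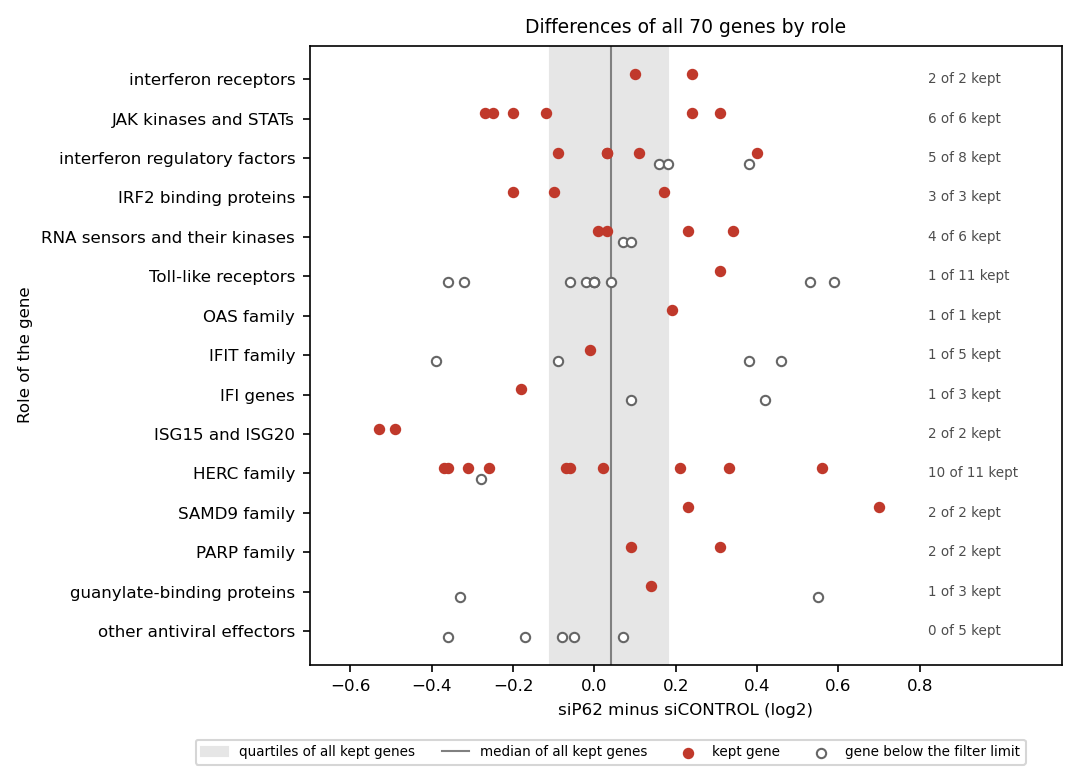
Difference of each of the 70 genes between the arrays (siP62 minus siCONTROL, log2) by role, filled where the gene was kept and open where it lay below the filter limit, with the quartiles (grey band) and median (line) of all kept genes. ISG15 and ISG20 lie to the left of the band and SAMD9L to the right, while the HERC, IFI and IFIT genes, the JAK kinases and STATs, the Toll-like receptors and the guanylate-binding proteins have points on both sides of it.

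Many classical interferon-stimulated genes lay below the limit in both conditions, where values are not shown to be above background. Below it were IFIT1, with 2.77 in siP62 cells and 3.16 in siCONTROL cells, and BST2, the tetherin that holds virions at the cell surface, with 2.85 in siP62 cells and 2.90 in siCONTROL cells. RSAD2, which encodes the antiviral enzyme viperin, had 3.86 in siP62 cells and 3.94 in siCONTROL cells. IFIT2 (0.46), IFIT3 (-0.09), IFI44 (0.42), IFI44L (0.09), MX2 (-0.17), XAF1 (-0.36) and EPSTI1 (0.07) went both ways. The 29 genes below the limit had values of up to 5.15 in siP62 cells and 5.08 in siCONTROL cells and a median difference of 0.00, against -0.02 for all 6988 genes below it. Of them 14 were higher, 12 lower and 3 equal, where 42.2% of all genes below the limit were higher and 51.3% lower. They spread from -0.39 (IFIT1) to 0.59 (TLR2). TLR2, a sensor of bacterial lipoproteins, was the only one past 1.5-fold, with 3.88 in siP62 cells and 3.29 in siCONTROL cells, where 2.02% of all genes below the limit were as much higher and 2.75% as much lower. None was 2-fold higher or lower, where 0.172% and 0.129% were. TLR3, the endosomal sensor of double-stranded RNA, had 4.13 in siP62 cells and 3.60 in siCONTROL cells, and TLR4, the receptor of endotoxin, had 4.16 in siP62 cells and 4.12 in siCONTROL cells. TLR7 and TLR8, the sensors of single-stranded RNA, differed by -0.32 and -0.36, with siP62 values of 2.32 and 2.36. The other Toll-like receptor genes below the limit differed by -0.06 to 0.00, as did the antisense RNA TLR8-AS1. GBP4 (0.55), GBP5 (-0.33) and IFIT1B (0.38), relatives of kept genes, had values of 2.47 to 3.10.

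Further genes of these pathways, which the choice by symbol did not hold, had a median near that of all kept genes as well, with larger differences among the adaptors. Of 87 such genes sought, 52 had a named probe set and 41 of these were kept. They had a median difference of 0.05, with 24 higher, 16 lower and 1 equal, where 55.4% of all kept genes were higher and 41.8% lower. Those at least 1.5-fold lower were CYLD and IRAK1, and none was 1.5-fold higher, where 1.6% of all kept genes were as much lower and 2.08% as much higher. At least 2 robust SD from the medians of their bins lay 3 genes on the higher and 4 on the lower side, where 3.67% and 4.33% of all kept genes did. CYLD, a deubiquitinase that removes activating ubiquitin chains from RIGI and from NF-kB adaptors, had 6.08 in siP62 cells and 7.12 in siCONTROL cells. That is a 2.06-fold lower level, where 0.228% of all kept genes were at least 2-fold lower. IRAK1, a kinase downstream of Toll-like and interleukin-1 receptors, had 7.47 in siP62 cells and 8.10 in siCONTROL cells, a 1.55-fold lower level. Neighbouring steps differed in sign: MYD88, the adaptor of most Toll-like receptors, was 0.49 higher, and TICAM1, the adaptor of TLR3, differed by -0.43.

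The further interferon-stimulated genes of that list also went both ways. SLFN11, which restricts viral translation, had 6.11 in siP62 cells and 5.57 in siCONTROL cells. SP110, a nuclear body protein, had 5.24 in siP62 cells and 5.77 in siCONTROL cells, the siP62 value below the filter limit. Over the 21 kept genes of this kind the median difference was 0.06, with 15 higher and 6 lower, where 55.4% of all kept genes were higher and 41.8% lower. None of the 21 was past 1.5-fold, and SLFN11 and NMI lay at least 2 robust SD above and SP110 below the medians of their bins. The membrane proteins IFITM1, IFITM2 and IFITM3, which block virus entry, differed by 0.17, 0.14 and 0.03. The cytosolic DNA sensor gene CGAS differed by 0.29, and STING1, its partner, lay below the limit. The antigen presentation genes B2M and TAPBP, the only kept ones of their list, differed by -0.08 and 0.16. The feedback inhibitor SOCS3 differed by -0.22 and CISH by 0.27.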

How the data were processed

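Total RNA of A549 cells was read on 1 Affymetrix whole-transcript array per group, from 100 ng RNA, per the labels' protocols. The deposited table holds log2 values of 48226 probe sets in each array. The submitters' processing notes name RMA, along with the Transcriptome Analysis Console (version 4.0.2.15). RMA usually makes the distributions of arrays alike, so a shift of all genes would not be seen. Array medians were 4.02 (siP62) and 4.07 (siCONTROL). For the probe sets, the genome build was not given in the sources used here, and no detection calls came with the values.

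Genes were named from the platform annotation, which gave 1 symbol for 16098 probe sets and none for 32128. The probe set with the highest mean stood for a gene; 67 of the 70 genes had 1. Kept genes were split by mean level into 20 bins, and the robust SD is the scaled median absolute deviation within a bin (0.15 to 0.39). The filter on the higher of the 2 values widened the spread of the lowest bin. Genes were counted at 1.5-fold, 2-fold and 2 robust SD beside the share of all kept genes. With 1 array per group no test was possible; the number of arrays limits the precision. Promoter sequences are RefSeq's (GRCh38.p14).

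Named with values are SQSTM1, the 12 highest and 12 lowest kept genes, those past 1.5-fold, 50 central genes where named on the array, and the 4 further pathway genes with the largest absolute difference; others illustrate a role, picked with their values in view. The genes and lists were chosen with earlier results of these data known. Alternatives were another centring, quantile normalization, probe-set mean, filters and bins. The procedure was tested on simulated data with the same spread at every level. Their effects were either absent or larger than any difference of these genes, so differences as small as those seen here were not covered. The filter was not part of that simulation. Python 3.11.15 and pandas 2.3.3 were used.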

Additional observations from a re-analysis of the deposited data

How the results depend on the processing

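With 1 array per group, no replicate could be left out. No paired analysis was possible because each group held 1 array. The median difference of the kept genes (0.03) was -0.01 with the median of all kept genes subtracted, -0.012 with a loess curve subtracted and 0.00 after quantile normalization, so its sign is not settled. Without a filter, 38 of 70 genes were higher and 29 lower in the siP62 array, 2 were 1.5-fold higher, and 5 and 1 lay 2 robust SD above and below their bins. With the filter at the 70th percentile, 13 of 24 were higher and 11 lower, 0 were 1.5-fold higher and 0 lay 2 robust SD above; SAMD9L, ISG15, ISG20 and HERC5 were not kept there. With the filter on the mean of both values, which left out ISG20, HERC5, IRF5 and TLR6, 4 lay 2 robust SD below. Without the genes held by name only, 9 were lower and 1 lay 2 robust SD below. None of 203 recomputed differences of the 32 kept genes named by rule moved by more than the robust SD of its bin. Most of them could not have done so. A filter leaves the difference of a gene as it is, and the probe-set mean changes only genes with a second probe set. Subtracting the median moves every difference by the same 0.04, less than the lowest robust SD of any bin (0.15). Those of IRF3 and MAVS turned below 0 under 3 settings and those of IRF9 and TBK1 under 2. Many interferon-stimulated genes lay below the filter limit, which bounds what their differences can show.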
